A study of Homo sapiens with 4 samples.

Results

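NETO2, APLNR, UNC5B and RGS3 are 4 of the 143 genes in the authors' table of TRIAC-treated against control K562 cells, and they were chosen by symbol, as receptor and G protein signalling genes whose values were very different in the 2 groups. K562 is an established human erythroleukemia cell line that makes embryonic and fetal globins. TRIAC, also called tiratricol, is a thyroid hormone metabolite that binds thyroid hormone receptors. All cells received 10 µM hemin, which drives K562 cells toward the erythroid lineage. There were 2 libraries of cells given 20 µM TRIAC for 48 h and 2 libraries of cells given DMSO, the solvent, for the same time. The table gives 1 expression value per group and gene. No values per library were used here, so no SD, interval or test stands behind any difference below, and the depth is unknown. Because the genes were picked from this same comparison, their values are a description. Bulk RNA also cannot tell fewer cells of a kind from less RNA per cell.

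Cells read their surroundings through surface receptors, and the G protein-coupled receptors among them pass the signal on by loading G protein α subunits with GTP. Regulators of G protein signalling end that signal by speeding GTP hydrolysis. NETO2 is a transmembrane protein with CUB domains that serves as an auxiliary subunit of kainate-type glutamate receptors. APLNR is the G protein-coupled receptor for apelin and ELABELA, known from heart and vessel development. UNC5B is a receptor for netrin-1 with a cytoplasmic death domain, known from axon and vessel guidance. RGS3 is a GTPase-activating protein for Gi and Gq α subunits.

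The 4 genes lie on 4 chromosomes of GRCh38 (GENCODE 44). NETO2 (NCBI Gene 81831) spans 47077703 to 47143945 on the minus strand of chromosome 16, and its canonical transcript has 9 exons. APLNR (NCBI Gene 187) spans 57233577 to 57237250 on the minus strand of chromosome 11, with 1 exon. UNC5B (NCBI Gene 219699) spans 71212570 to 71302864 on the plus strand of chromosome 10, with 17 exons. RGS3 (NCBI Gene 5998) spans 113444731 to 113597743 on the plus strand of chromosome 9. It has the most complex model of the 4, with 31 transcripts, 14 of them protein-coding, and 23 exons in the canonical transcript. NETO2 has 5 transcripts, and APLNR and UNC5B have 2 each.

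Sequence before the annotated start is shown for NETO2, which has the highest ratio among the 140 genes with both values above 0, and for RGS3, whose several starts differ in composition. RefSeq windows of 300 bases (GRCh38.p14, 250 before and 50 after a start) matched 2 of the 4 genes, with 1 window for NETO2 and 5 for RGS3. The 250 bases before the start are printed 5′ to 3′ for NETO2 (chr16:47143946-47144195, minus strand), the most upstream RGS3 start (chr9:113444480-113444729, plus strand) and the RGS3 start with a motif match (chr9:113536361-113536610, plus strand). Capitals mark a match to the thyroid hormone receptor half-site AGGTCA on either strand.
NETO2: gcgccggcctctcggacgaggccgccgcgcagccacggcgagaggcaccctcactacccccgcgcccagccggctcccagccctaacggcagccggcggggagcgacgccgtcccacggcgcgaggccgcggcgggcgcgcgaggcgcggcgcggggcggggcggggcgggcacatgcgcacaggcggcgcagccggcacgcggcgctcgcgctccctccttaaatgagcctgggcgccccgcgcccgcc
RGS3, most upstream start: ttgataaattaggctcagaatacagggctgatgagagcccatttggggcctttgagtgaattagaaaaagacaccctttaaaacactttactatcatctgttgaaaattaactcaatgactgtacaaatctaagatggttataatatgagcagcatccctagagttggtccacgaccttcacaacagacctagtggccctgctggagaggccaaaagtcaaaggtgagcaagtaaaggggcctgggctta
RGS3, start with a match: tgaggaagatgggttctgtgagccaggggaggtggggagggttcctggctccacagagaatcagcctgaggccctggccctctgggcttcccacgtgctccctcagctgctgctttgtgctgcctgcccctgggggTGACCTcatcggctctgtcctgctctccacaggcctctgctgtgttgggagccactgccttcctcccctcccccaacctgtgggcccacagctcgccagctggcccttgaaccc

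The NETO2 window was 81.7% G and C, against a median of 58.7% over all 35116 windows. The 5 RGS3 windows held less, 73.7% at most. The half-site was found in 1 of the 6 windows, in that RGS3 window, where its first base lies 114 bases before the start. Of all windows, 13.8% held the half-site. A GATA motif, AGATAA, and a composite C/EBP and ATF motif, TGATGNAA, were found in none of the 6 windows on either strand, and were in 10.3% and 3.62% of all windows. These are matches of letters and not binding sites. Which start the cells used is not in the values, because the table has 1 row per gene.

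Among the surface proteins, NETO2 and APLNR were higher with TRIAC. The expression value of NETO2 was 22.5 with DMSO and 901 with TRIAC, which is 40.1 times higher. That of APLNR was 6.04 with DMSO and 173 with TRIAC, which is 28.6 times higher. Both genes started low, NETO2 at rank 21 and APLNR at rank 7 from the lowest of the 143 control values. With TRIAC, NETO2 stood at rank 25 from the highest value and APLNR at rank 76. So the TRIAC value of APLNR was near the middle of the table, whose median TRIAC value was 202, and NETO2 was above it.

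UNC5B and RGS3 were lower with TRIAC. The expression value of UNC5B, the netrin receptor, was 306 with DMSO and 12.2 with TRIAC, which is 25.1 times lower. That of RGS3, the G protein regulator, was 111 with DMSO and 1.56 with TRIAC, which is 71.4 times lower. The TRIAC value of RGS3 was the 4th lowest of the 143, counting 2 genes listed at 0, and UNC5B was the 24th lowest. The control value of RGS3 lay below the median of 407 of the lower genes, and so did that of UNC5B. None of the 4 genes is listed at 0 in either group. The fold of RGS3 rests on a very low value and became 43.9 times lower when 1 was added to both values. The same step gave 38.4 and 24.7 times higher for NETO2 and APLNR and 23.3 times lower for UNC5B.

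**Figure D1:**
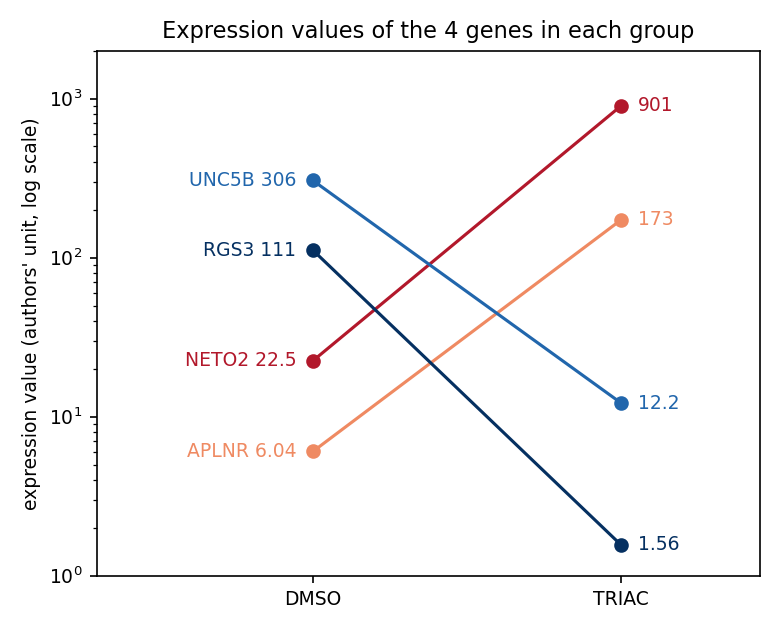
The 4 genes in both groups (horizontal axis) by expression value (vertical axis, in the authors' unit on a log scale); each point is the 1 value of a group, without an error bar, and a line connects each gene's pair of points. NETO2 and APLNR run upward, and UNC5B and RGS3 run downward to 12.2 and 1.56.

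The 2 pairs of genes changed places between the groups. By expression value it was UNC5B, RGS3, NETO2 and APLNR in control cells and NETO2, APLNR, UNC5B and RGS3 with TRIAC. Within each pair the order stayed, so UNC5B was above RGS3 in both groups, by 2.74 times in control cells and 7.81 times with TRIAC, and NETO2 was above APLNR, by 3.72 and 5.22 times. Whether neighbours in these orders differ beyond the spread between libraries was not tested.

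Levels of different genes are better compared per length. Genes of different listed length share 4 of the expression values above 0, so the values were not read as already divided by length. The listed lengths are 3668 bases for NETO2, 3787 for APLNR, 6907 for UNC5B and 1975 for RGS3. Per kb of listed length, the control level was 56.4 for RGS3, 44.2 for UNC5B, 6.12 for NETO2 and 1.59 for APLNR. RGS3, below UNC5B by plain value, was therefore 1.27 times above it per kb. With TRIAC the level per kb was 246 for NETO2, 45.6 for APLNR, 1.76 for UNC5B and 0.79 for RGS3. For orientation, the median level per kb over the table was 72.0 in control cells and 64.4 with TRIAC. By listed length, all 4 genes were below the first, and NETO2 alone of the 4 was above the second.

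The place of RGS3 depends on which length is used. The listed length of RGS3 equals that of 0 of its 31 transcripts in GENCODE 44, whose protein-coding ones range from 571 to 4591 bases. With the canonical transcript of 4122 bases the control level of RGS3 was 27.0 per kb, below the 44.7 per kb of UNC5B, and with the longest it was 24.2. With the shortest coding transcript of each gene RGS3 was above UNC5B in both groups. The levels were 195 against 47.4 per kb in control cells and 2.73 against 1.89 with TRIAC. The 195 also lies above the control median of 72.0, which uses listed lengths. For NETO2 the canonical and longest coding transcript has 7429 bases, with which the TRIAC level was 121 per kb, still above the 47.2 per kb of APLNR. The lengths of APLNR and UNC5B differ little between the sources, at 3660 and 6841 bases for the canonical transcripts. The ratios between the groups do not depend on the length.

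Among all 143 genes, 61 (42.7%) had a higher and 82 (57.3%) a lower value with TRIAC, against 2 and 2 of the 4 genes. A difference of at least 10-fold was found for 22 genes higher (15.4%) and 29 genes lower (20.3%). All 4 genes were past 10-fold, NETO2 and APLNR upward and UNC5B and RGS3 downward, and since the same comparison chose them, nothing is read from this. The table itself holds no small differences. Its smallest fold in either direction was 2.73, and 3 genes are listed at 0 in 1 group. Of the 140 genes with both values above 0, NETO2 had the highest ratio and APLNR the 4th highest. PYURF, chosen after its values were seen, is listed at 0 in control cells and at 69.0 with TRIAC and has no ratio. RGS3 had the 2nd lowest ratio and UNC5B the 8th lowest. INHBC and SLMO2-ATP5E, also chosen after their values were seen, had 29.1 and 42.9 in control cells. Both are listed at 0 with TRIAC and have no ratio.

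**Figure D2:**
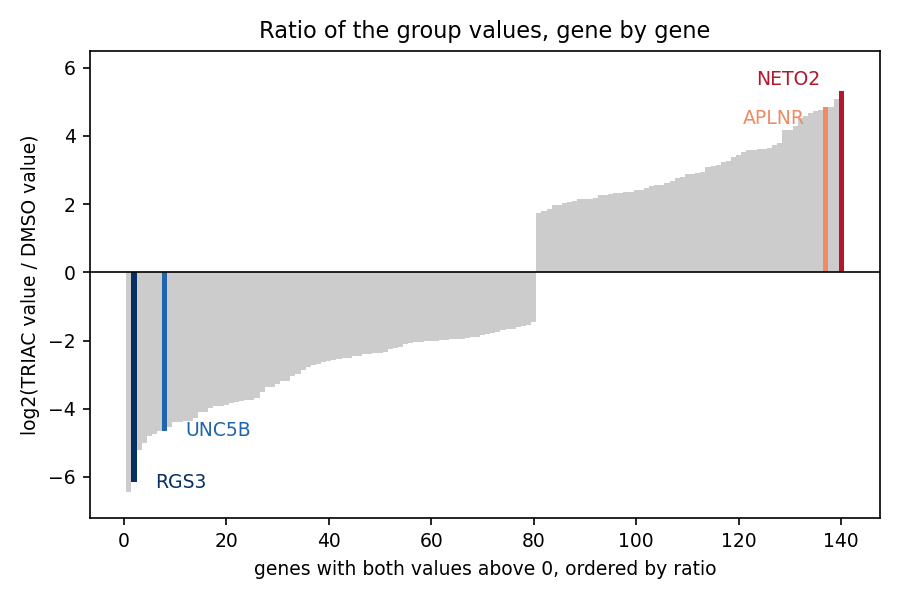
Log2 ratio of the TRIAC to the DMSO expression value (vertical axis) for the 140 genes with both values above 0, ordered from the lowest to the highest ratio (horizontal axis). NETO2 at 5.33 and APLNR at 4.84 stand at the upper end, and RGS3 at -6.16 and UNC5B at -4.65 at the lower end; no gene lies near 0.

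**Figure D3:**
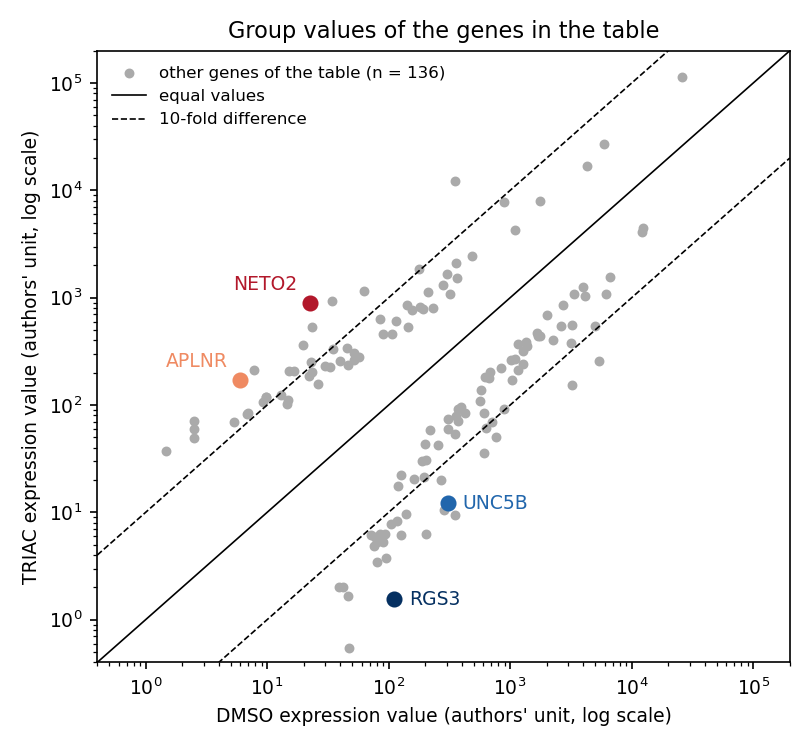
Expression value with DMSO (horizontal axis) and with TRIAC (vertical axis), both on log scales in the authors' unit, for the 140 genes with both values above 0. The solid line marks equal values and the dashed lines a 10-fold difference; the 4 labelled genes lie outside the dashed lines, NETO2 and APLNR above and UNC5B and RGS3 below.

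The genes with the most similar pair of values were found by the distance between the log2 values, after adding 1, over the 2 group values. The nearest to NETO2 was TUBB1, the β-tubulin of platelets, at 34.2 in control cells and 927 with TRIAC, and then ESPN, an actin-bundling protein, at 23.3 and 533. The nearest to APLNR was CHST3, a chondroitin sulfotransferase, at 7.86 and 210, followed by LINC00891, a noncoding RNA, and LOC100132741, which are listed with the same length and the same values, 9.71 and 119. The nearest to UNC5B was ADM2, a secreted peptide of the calcitonin family, at 285 and 10.6, and then ASS1, the argininosuccinate synthase, at 354 and 9.47. UNC5B and ADM2 were the closest of these pairs, with a distance of 0.21. RGS3 had no neighbour as close. Its nearest genes were FAM107B, at 80.3 and 3.43, and IL21R, the interleukin-21 receptor, at 95.3 and 3.76, both at a distance of 0.92. With 2 values per gene, this likeness says only that the levels and their difference were similar.

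For most partners of the 4 genes there is no row, so they were not analysed here. Of 7 kainate receptor subunits and auxiliary proteins, NETO2 alone has a row, so none of the receptor subunits that NETO2 binds could be followed. Of the 3 genes of the apelin system, APLNR alone has a row, without its ligands APLN and APELA. Of 18 netrins, netrin receptors and UNC5 ligands, UNC5B alone has a row, and NTN1, the netrin-1 gene, has none. Of 28 regulators of G protein signalling, RGS3 alone has a row. No row was found for 28 heterotrimeric G protein subunits, 11 receptor kinases and arrestins, 26 G protein effectors or 51 G protein-coupled receptors of blood and vessel cells. Of 44 other guidance receptors and ligands, SEMA7A has a row. SEMA7A is a semaphorin that red cells carry as a blood group antigen, and it was 6.41 times higher with TRIAC, from 39.7 to 255. Together the 9 lists hold 216 genes, of which 5 have a row, the 4 chosen genes and SEMA7A. Of these 5, 3 were higher and 2 lower, while 42.7% of all 143 genes were higher. Because this same comparison chose 4 of the 5 for large differences, nothing is read from their directions. A gene without a row cannot be called unchanged. A list with 1 row has that gene's log2 ratio as its median, beside a median of -1.82 over the table.

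Among 41 cytokine, Fc and complement receptors, 3 have a row. CR2, the complement receptor of B cells, was 10.9 times higher, from 23.0 to 251. FCGR2A, an Fcγ receptor, was 17.1 times lower, from 613 to 35.8, and IL21R was 25.3 times lower. The median log2 ratio of the 3 was -4.10. IL20RB, a cytokine receptor gene outside this list and chosen after its values were seen, was 13.3 times lower, from 104 to 7.82. These receptors thus lay on both sides, as the surface proteins NETO2, APLNR and UNC5B do.

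The annotation terms in the deposited table also place the 4 genes. Terms on G protein-coupled receptor signalling are given for 4 genes, APLNR, RGS3, OR2AT4 and ADM2, the last 2 chosen after their values were seen. OR2AT4, an olfactory receptor, was 7.64 times higher, from 30.2 to 230. ADM2, whose peptide acts on a G protein-coupled receptor, was 27.0 times lower. RGS3 is the only gene of the table with the term for GTPase activator activity. The pathway of axon guidance is given for 10 genes, 5 higher and 5 lower, with UNC5B and RGS3 among the lower. Process terms on axon guidance are given for 5 genes, 1 higher and 4 lower, with UNC5B but not RGS3 among them. The other 3 lower genes of the pathway were ITGA5, LGALS1 and VEGFA, named here after their values were seen. They were 3.49, 3.88 and 3.21 times lower. UNC5B and RGS3 had larger folds, but this same comparison chose them for large differences, so nothing is read from this. A term that contains plasma membrane is given for 42 genes, APLNR, UNC5B and RGS3 among them. Of the 42, 15 (35.7%) were higher and 27 lower, beside 42.7% higher over the whole table. For NETO2 the table gives the postsynaptic density and the kainate receptor complex.

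The table holds no small differences, so a marker with a stable level has no row. The markers below therefore describe differences between the groups and cannot check the label of the cells. Of 19 erythroid markers, 13 have a row, all higher with TRIAC, beside 42.7% of the genes of the table. Their median log2 ratio was 3.65. Their summed value was 38623 in control cells and 182070 with TRIAC, of which HBG2 gave 25809 and 114251. The γ-globin gene HBG2, chosen after its value was seen, had the highest value in both groups. NETO2, APLNR and UNC5B are best known from neurons or vessels, but all libraries here are of K562 cells. None of 14 neuron and glia markers and none of 13 endothelial markers has a row, so no change in these markers can be read. Of 18 myeloid and lymphoid markers, 4 have a row, SPI1, CD68, CD3D and CORO1A. All 4 were lower, beside 57.3% of the genes of the table, with a median log2 ratio of -2.48. Their summed value was 1621 in control cells and 367 with TRIAC, of which CD68 gave 1014 and 265. Of 10 megakaryocyte and platelet markers, TUBB1 has a row and was 27.1 times higher. The erythroid markers and TUBB1 were thus higher, as NETO2 and APLNR were, and the myeloid and lymphoid markers lower, as UNC5B and RGS3 were, and their part in the values of the 4 genes was not tested. The 11 thyroid hormone receptor and transporter genes have no row.

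Shared sequence between genes can blur their values. Of the 50-base windows of the canonical transcript, 0% lie also in a transcript of another gene for APLNR, UNC5B and RGS3, and 3.47% for NETO2. UNC5B and RGS3 each overlap 1 noncoding gene on the opposite strand, UNC5B-AS1 in the case of UNC5B. The 0% above covers both strands, so no 50-base window of either canonical transcript lies in a transcript of these noncoding genes. Other transcripts of UNC5B and RGS3 were not checked in this way. The sources used here do not say whether counting used the strand.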

How the data were processed

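RNA-seq of K562 cells was deposited as 1 table of 143 genes. For each gene the authors deposited 1 expression signal value per group and a length in bases. The unit of this signal is not given, and neither is how the 2 libraries of a group were combined. Per the submitters' processing notes the tools were Bowtie2, RSEM, edgeR, Trimmomatic, FastQC and CASAVA 1.8 and the build was GRCh38, with no roles or order. The design text instead gives TopHat, Cufflinks and BWA. Sequencing and analysis were done by a company. The table also holds the authors' own comparison (a fold change, a p-value, an adjusted p-value and a direction), which was not used. No sample column was left unmatched. Whether the libraries came from separate cultures is not given.

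The members and gene lists were chosen with earlier results of these data known. The ratio of the 2 values, the level per kb and counts of genes at least 10-fold apart were computed without a test, since there is 1 value per group. Named genes are the 4 members, every gene with a row in the 9 signalling lists, up to 4 genes of each other list, and the 2 genes nearest to each member; any other is marked in the text as picked later. Gene positions and transcripts came from GENCODE 44 and promoter windows from RefSeq, both on GRCh38. All 4 gene identifiers matched the RefSeq gene table. Windows of 50 bases were matched exactly on both strands. Alternatives were a pseudocount of 1, scaling by the median ratio, 5-fold and 20-fold in place of 10-fold, and a filter on low values; other transcript lengths were added after the data were examined. The ratios and counts were tested on simulated data. Calculations ran in Python 3.11.15 with numpy 2.4.6, pandas 2.3.3 and matplotlib 3.10.9.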

Additional observations from a re-analysis of the deposited data

How the results depend on the processing

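The direction of NETO2, APLNR, UNC5B and RGS3 was the same with a pseudocount of 1 and after scaling by the median ratio. That scaling divides the TRIAC values by 0.284, which raises every log2 ratio by 1.82, and the table lists only genes that differ, so its median is not a neutral reference. It gave 141 and 101 times higher for NETO2 and APLNR, and 7.12 and 20.2 times lower for UNC5B and RGS3, so UNC5B was then under 10-fold. Counts of higher genes went from 61 to 71. Genes at least 10-fold higher, 22 as reported, were 60 after scaling, 45 at 5-fold, 9 at 20-fold and 12 among the 107 genes whose higher value was above 148. Genes at least 10-fold lower, 29 as reported, were 3, 51, 13 and 11 in the same order. NETO2 and APLNR were in each of these counts. RGS3 was outside the last, since its control value of 111 is below the filter, and UNC5B outside the count after scaling. Fewer genes tested and the other fold themselves make some of these counts smaller or larger. With lengths chosen after the data were examined, the control level per kb of RGS3 over that of UNC5B went from 1.27 to 0.605 with the canonical transcripts and 0.543 with the longest coding transcripts, which turns the order, and to 4.12 with the shortest. The TRIAC level per kb of NETO2 over APLNR went from 5.38 to 2.57 with the canonical or longest transcripts and to 32.9 with the shortest. No paired analysis was possible because the columns carry 1 value per group and no replicate number, and for the same reason no library could be left out. The depth is unknown, so how firmly the low values of APLNR in control cells and of RGS3 with TRIAC are known cannot be given.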

Other observations

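Neighbouring genes of the table were looked up within 1 Mb of each of the 4 genes, by RefSeq gene positions on GRCh38.p14, and were chosen after the values were seen. Of the 143 genes, 51 (35.7%) have another gene of the table that near, and so do 3 of the 4. GPT2, a mitochondrial alanine transaminase, lies 146.4 kb from NETO2 and was lower, from 609 in control cells to 84.0 with TRIAC, which is 7.25 times lower. CHST3 lies 661.5 kb from UNC5B and was 26.7 times higher, and DDIT4, an inhibitor of mTORC1, lies 971.1 kb from UNC5B and was 21.1 times lower, from 5428 to 258. SLC31A1, a copper transporter, lies 180.2 kb from RGS3 and was 3.15 times lower, and AKNA, an AT-hook protein, lies 732.8 kb from RGS3 and was 15.1 times lower, from 766 to 50.6. So the neighbours of RGS3 were lower like it, that of NETO2 was lower unlike it, and those of UNC5B were on both sides. Of all 143 genes, 57.3% were lower, and with so few neighbours nothing is read from these directions. APLNR has no neighbour in the table within this distance.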
